A study of Mus musculus with 2 samples.

Results

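The matrix genes and their integrin receptors were examined in mouse neural stem cells, the progenitors that give rise to neurons and glia. Members were taken by symbol from the deposited table of genes. They comprise every chain of a collagen or laminin, fibronectin (Fn1), the nidogens Nid1 and Nid2, perlecan (Hspg2), agrin (Agrn) and every integrin alpha or beta chain that the table listed. The rule found 83 of 15953 listed genes, 59 of them matrix genes (the ligands) and 24 integrin genes (the receptors). It used gene symbols only, but it was proposed with earlier results of these data known.

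Total RNA from cells in suspension culture was sequenced in 1 library labelled Wild_Type and in 1 library labelled Hikeshi_cKO, a conditional knockout of the gene for Hikeshi, the import carrier of HSP70 chaperones. The labels do not name the Cre driver, the deleted part of the gene, or the strain, age and pooling of the mice. With 1 library per genotype no test was possible, so every interval below is a 95% counting interval (exact conditional binomial) that compares these libraries and not the genotypes. The libraries carried no stated molecular identifiers, so several reads can come from 1 molecule and the intervals cover counting error only.

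Where values are paired, that of the cKO-labelled library comes first. Depth was nearly equal, at 18912683 reads (cKO) and 18839079 reads (wild type). Hikeshi itself had 640 reads against 718, so its level does not check the labels, and directions are given between libraries as labelled. The cKO-labelled library also had 2931 reads of 4 Y-linked genes against 1 read in the other, and this difference cannot be told apart from the genotype labels. All 8 fixed stem cell markers were kept by the filter given below. By mean TPM their levels ran from Pax6, at 9.21 TPM against 10.8 TPM (transcripts per 1000000, deposited by the authors, a measure per transcript length), to Fabp7, at 4597 TPM against 7039 TPM. Of the 8, Vim was at least 1.5-fold higher (ratio 1.69) and Sox9 and Fabp7 lower (0.602 and 0.661), while Sox2, at 304 TPM against 305 TPM, and the other 4 lay within 1.5-fold. All 9 fixed markers of the oligodendrocyte lineage were lower in the cKO-labelled library, with a sum of 128 CPM (reads per 1000000 reads counted) against 1367 CPM. All 8 astrocyte markers were lower as well, with 2268 CPM against 4479 CPM. Both lists moved with the lower matrix genes described below, and their part in those differences was not tested. In bulk RNA, fewer cells of a type and less RNA per cell cannot be told apart.

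Collagens are built of chains wound into triple helices. Some assemble into fibrils, some coat fibrils, and collagen IV forms the sheet-like network of basement membranes together with laminin trimers, nidogens, perlecan and agrin. Cells hold this matrix through integrins, each an alpha chain paired with a beta chain, of which the alpha chain largely sets the ligand. In the neural stem cell niche laminins and their integrin receptors anchor progenitors to basement membrane, and fibronectin is a ligand of the alpha5 beta1 and alphav integrins.

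Collagen IV genes lie in head-to-head pairs, and their start regions are shown because both genes of one pair were lower in the cKO-labelled library while both of another had ratios above 1. The windows run from 250 bases before to 50 bases after an annotated start (RefSeq, GRCm38.p6) and are written 5′ to 3′ on the strand of the gene. The window of Col18a1, the matrix gene of highest TPM in the cKO-labelled library, is added. Capitals mark CCAAT and GGGCGG, searched on both strands, so the reverse forms ATTGG and CCGCCC are in capitals as well. The Col4a1 window is chr8:11312777-11313076 on the minus strand, and the Col4a2 window is chr8:11312555-11312854 on the plus strand. The Col4a6 window is chrX:141474027-141474326 on the minus strand, and the Col4a5 window is chrX:141475169-141475468 on the plus strand. The Col18a1 window is chr10:77166481-77166780 on the minus strand.
Col4a1: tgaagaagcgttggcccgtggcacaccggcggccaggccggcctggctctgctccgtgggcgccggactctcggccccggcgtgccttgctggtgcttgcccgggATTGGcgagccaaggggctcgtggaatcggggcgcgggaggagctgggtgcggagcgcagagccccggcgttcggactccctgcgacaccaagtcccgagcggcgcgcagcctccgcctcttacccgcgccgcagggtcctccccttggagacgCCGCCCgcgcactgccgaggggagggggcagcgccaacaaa
Col4a2: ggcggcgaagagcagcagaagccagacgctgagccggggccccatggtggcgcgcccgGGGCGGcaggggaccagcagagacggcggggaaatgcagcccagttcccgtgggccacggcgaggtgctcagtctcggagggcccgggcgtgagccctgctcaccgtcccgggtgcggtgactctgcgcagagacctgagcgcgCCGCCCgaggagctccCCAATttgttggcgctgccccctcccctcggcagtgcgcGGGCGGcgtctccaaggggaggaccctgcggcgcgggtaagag
Col4a6: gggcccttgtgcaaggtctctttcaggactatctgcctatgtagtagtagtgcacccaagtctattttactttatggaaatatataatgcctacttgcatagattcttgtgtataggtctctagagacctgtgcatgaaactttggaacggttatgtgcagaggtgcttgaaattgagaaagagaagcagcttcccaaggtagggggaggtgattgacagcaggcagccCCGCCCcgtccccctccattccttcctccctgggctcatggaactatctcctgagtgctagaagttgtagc
Col4a5: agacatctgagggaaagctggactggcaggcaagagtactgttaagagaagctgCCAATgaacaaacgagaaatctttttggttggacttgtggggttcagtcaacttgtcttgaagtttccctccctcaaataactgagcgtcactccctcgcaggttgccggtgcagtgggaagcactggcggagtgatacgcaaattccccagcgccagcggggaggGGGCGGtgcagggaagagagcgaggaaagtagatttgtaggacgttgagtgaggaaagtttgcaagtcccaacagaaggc
Col18a1: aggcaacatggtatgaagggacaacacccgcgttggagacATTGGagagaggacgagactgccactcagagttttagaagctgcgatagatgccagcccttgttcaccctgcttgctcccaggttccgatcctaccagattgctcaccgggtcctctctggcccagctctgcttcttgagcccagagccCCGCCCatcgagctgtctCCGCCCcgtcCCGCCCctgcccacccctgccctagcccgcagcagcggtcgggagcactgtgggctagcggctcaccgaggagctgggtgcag

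The starts of Col4a1 and Col4a2 in these windows were 21 bases apart, and the windows shared 78 bases. Those of Col4a5 and Col4a6 were 1343 bases apart. The Col4a1 window had GC content of 74.0% and the Col4a6 window of 48.3%. CCAAT was found in 4 of these 5 windows, all but that of Col4a6, and GGGCGG in all 5. Of all 32851 windows of this length 37.4% held CCAAT and 35.7% held GGGCGG. Among the 42 windows of kept members the shares were 31.0% and 71.4%, that of CCAAT below the share of all windows. A second annotated start of Col18a1, 52825 bases away, had neither motif in its window. Windows were matched for 37 of the 53 members kept below, and Fn1, Col2a1, Col9a3 and Itga7 had no entry.

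A level of 1 CPM in either library was required to keep a gene, and 37 matrix and 16 integrin genes met it. Differences are the log2 ratio of CPM + 1, cKO over wild type, and a gene counts as higher or lower when it was at least 1.5-fold apart on that scale. Of the 37 matrix genes 7 were higher and 12 lower in the cKO-labelled library, where 4.22% and 10.2% of all 12618 kept genes were higher and lower. Of the 16 integrin genes 3 were higher and 2 lower. Median differences were -0.23 for matrix genes, 0.26 for integrin genes and -0.02 for all kept genes. At 2-fold, 3 matrix genes were higher and 7 lower, beside 1.25% and 3.85% of all kept genes, and 2 integrin genes were higher and 1 lower. Matrix genes were thus spread in both directions. Above 0 lay 14 of 37 matrix genes and 10 of 16 integrin genes, beside 6037 of all 12618 kept genes. Of the kept genes, 6 matrix and 2 integrin members reached the filter in 1 library only, which favours a difference, and 6 of these 8 were past 1.5-fold. Among members that reached it in both libraries, 6 of 31 matrix genes were higher and 8 lower, as were 3 and 1 of 14 integrin genes, beside 3.84% and 8.44% of all genes that did.

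**Figure D1:**
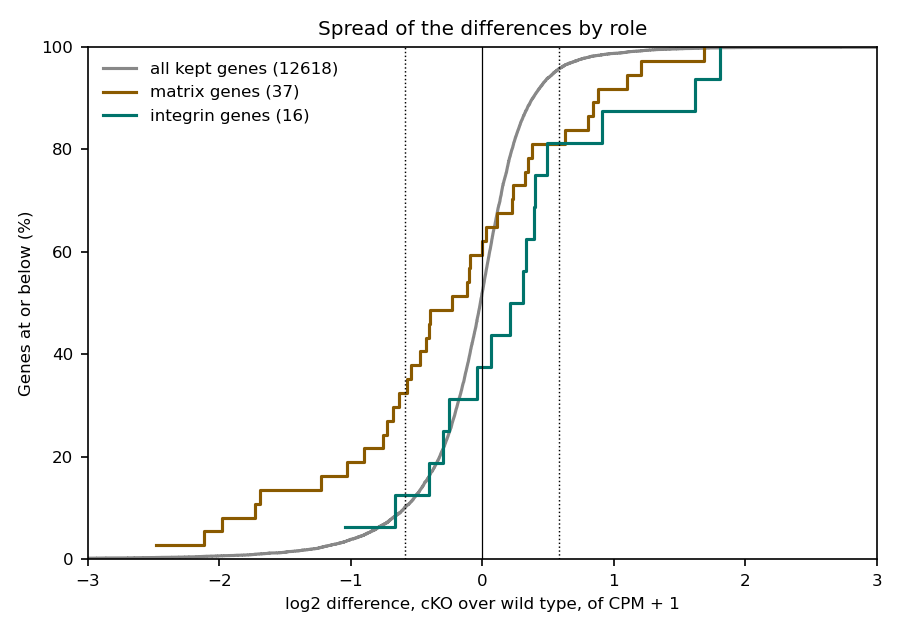
Cumulative percentage of genes (vertical axis) by log2 difference of CPM + 1, cKO over wild type (horizontal axis), for matrix genes, integrin genes and all kept genes. Dotted lines mark 1.5-fold; the matrix line lies left of 0 at its median of -0.23 and the integrin line right of it at 0.26.

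Summed over all members of a role, matrix reads were 1139 CPM (cKO) and 1100 CPM (wild type), a ratio of 1.04 (1.02 to 1.06). This near balance rested on Col18a1, without which the ratio was 0.881 (0.863 to 0.900). Integrin reads summed to 1905 CPM against 1561 CPM, a ratio of 1.22 (1.201 to 1.24). Without Itgb1, the most abundant integrin gene, the ratio was 1.14 (1.12 to 1.17). Without Itgb1, Itga6 and Itga7, which all had ratios above 1, 492 CPM stood against 494 CPM. That sum keeps Itgav, which had a ratio of 0.812 and a mean TPM of 57.1 against 56.1 for Itga6. The balance thus depends on which abundant members are left out.

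**Figure D2:**
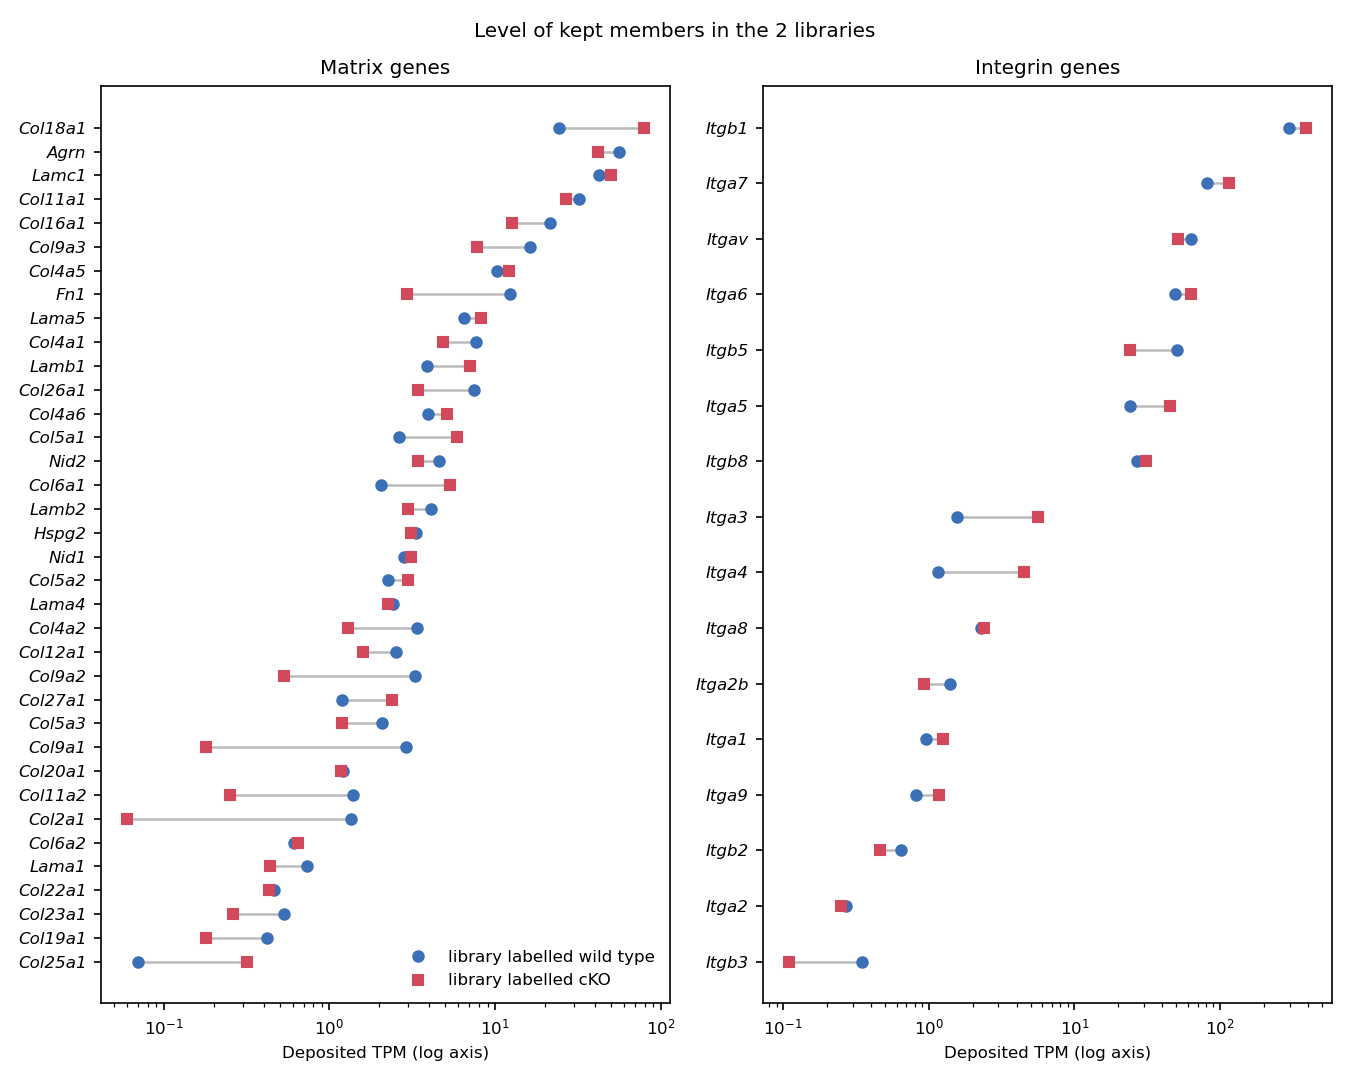
Deposited TPM (horizontal log axis) of the kept matrix genes (left, 1 not shown) and integrin genes (right) in the library labelled wild type (circles) and the library labelled cKO (squares), ordered by mean level. Col18a1 lies at 79.2 TPM in the cKO-labelled library against 24.2 TPM in the other, while Fn1 lies at 2.95 TPM and 12.4 TPM.

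Collagens showed the widest range among the ligands. Of 25 kept collagen genes 5 were higher and 11 lower in the cKO-labelled library, beside 4.22% and 10.2% of all kept genes. The collagen median difference was -0.48, against -0.02 for all kept genes. Among the 19 collagen genes that reached the filter in both libraries 4 were higher and 7 lower. Of all genes that did, 3.84% and 8.44% were higher and lower. Col18a1 (Entrez 12822, chromosome 10, 77052178 to 77166530, GRCm38.p6) encodes the basement membrane collagen whose carboxyl end is released as endostatin. It had 4400 reads (cKO) against 1346 (wild type) and was 3.26-fold higher (3.06 to 3.46). By TPM it held rank 1 among matrix genes in the cKO-labelled library, with 26.0% of their summed TPM, and rank 4 in the other. Its related multiplexin gene Col15a1 had 1 read against 0, at or under the floor of 3 reads that a count of 0 allows.

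The chains of collagens II, IX and XI are known as the fibril collagens of cartilage and also of the eye and inner ear. They are described together after their values were seen, so no count over them is given. Col2a1, Col9a1, Col9a2 and Col11a2 reached the filter in the wild-type-labelled library only, at 4.03, 6.37, 4.94 and 4.62 CPM against 0.159, 0.317, 0.793 and 0.740 CPM, which favours a difference. Col2a1 (chromosome 15, 97975602 to 98004724), the chain of collagen II, had 3 reads in the cKO-labelled library against 76, a ratio of 0.0393 (0.00793 to 0.119). Col9a1 (chromosome 1, 24177589 to 24252738), a chain of the fibril-coating collagen IX, had 6 reads against 120 and was 20.1-fold lower (8.96 to 55.8). These counts in the cKO-labelled library are few, and the intervals are correspondingly wide. The other collagen IX genes, Col9a2 with 15 reads against 93 and Col9a3 with 226 against 479, were 6.22-fold (3.59 to 11.6) and 2.13-fold lower (1.81 to 2.504). In the annotation 6.07% of the exon length of Col9a3 overlaps Tcfl5 on the other strand, and the strand setting of the counts is not known. Col11a2, a chain of the minor fibril collagen XI, had 14 reads against 87 and was 6.24-fold lower (3.53 to 11.9). Col11a1, the abundant chain of that collagen, had 1969 reads against 2300 and lay within 1.5-fold (log2 difference -0.23). The oligodendrocyte and astrocyte marker sums, 128 against 1367 CPM and 2268 against 4479 CPM, were lower in the same library.

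Of 8 kept fibril-associated collagens, which sit on the surface of fibrils or link them to other matrix, 5 were lower and 0 higher, where 10.2% and 4.22% of all kept genes were. Of the 5, Col9a1 and Col9a2 reached the filter in the wild-type-labelled library only, and among the 6 that reached it in both libraries 3 were lower, beside 8.44% of all genes that did. Beside the collagen IX genes these were Col16a1, with 732 reads against 1246 and 1.71-fold lower (1.56 to 1.87), and Col19a1, with 24 against 52 and 2.18-fold lower (1.32 to 3.69). The log2 difference of Col19a1 was -0.73. It was -0.27 from deposited TPM (0.18 against 0.42, with 1 TPM added) and -0.31 with 5 CPM added, both within 1.5-fold. Col19a1 lies 4944 bases from Col9a1 on chromosome 1, and both were lower. Col20a1, with 97 reads in each library, and Col22a1, with 29 against 33, had intervals that held 1. The summed TPM of the group was 24.5 in the cKO-labelled library against 48.6 in the wild-type-labelled one.

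Other fibrillar collagens went the opposite way or were split. Col5a1, a chain of collagen V, which starts the assembly of fibrils, had 556 reads against 248 and was 2.23-fold higher in the cKO-labelled library (1.92 to 2.60). Its partner Col5a2 had 219 against 167, a ratio of 1.31 (1.06 to 1.61), and Col5a3 had 80 against 139 and was 1.74-fold lower (1.32 to 2.33). The log2 difference of Col5a3 was -0.68. It was -0.49 from deposited TPM (1.19 against 2.07, with 1 TPM added) and -0.42 with 5 CPM added, both within 1.5-fold. Thus Col5a1 and Col5a3 lay on opposite sides of 1. Col27a1 had 190 reads against 97 and was 1.95-fold higher (1.52 to 2.52), with a log2 difference of 0.85 that became 0.57, within 1.5-fold, with 5 CPM added. The major chains of connective tissue were close to absent in both libraries, with 14 against 17 reads for Col1a1, 9 against 6 for Col1a2 and 3 against 2 for Col3a1. Fibroblast, pericyte and smooth muscle markers were not all absent. Of 11 listed 5 were kept, with a sum of 72.4 CPM against 41.8 CPM that followed Prrx1 (1126 against 473 reads), which was higher. Pdgfrb (41 against 84 reads) and Tagln (55 against 105) were lower, and Acta2 (121 against 77) and Rgs5 (14 against 30) lay within 1.5-fold. The fibroblast gene Lum, one of those under the filter, had 1 read against 0.

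Among beaded-filament collagens, Col6a1 had 227 reads against 87 and was 2.60-fold higher in the cKO-labelled library (2.02 to 3.37). Its chain partner Col6a2, 85161 bases away on chromosome 10, had 26 against 25, a ratio of 1.04 (0.575 to 1.87). The TPM ratio of Col6a1 to Col6a2 was accordingly 8.18 in the cKO-labelled library against 3.34 in the wild-type-labelled one. Col6a3, the third chain of the usual trimer, was under the filter with 9 against 13 reads.

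**Figure D3:**
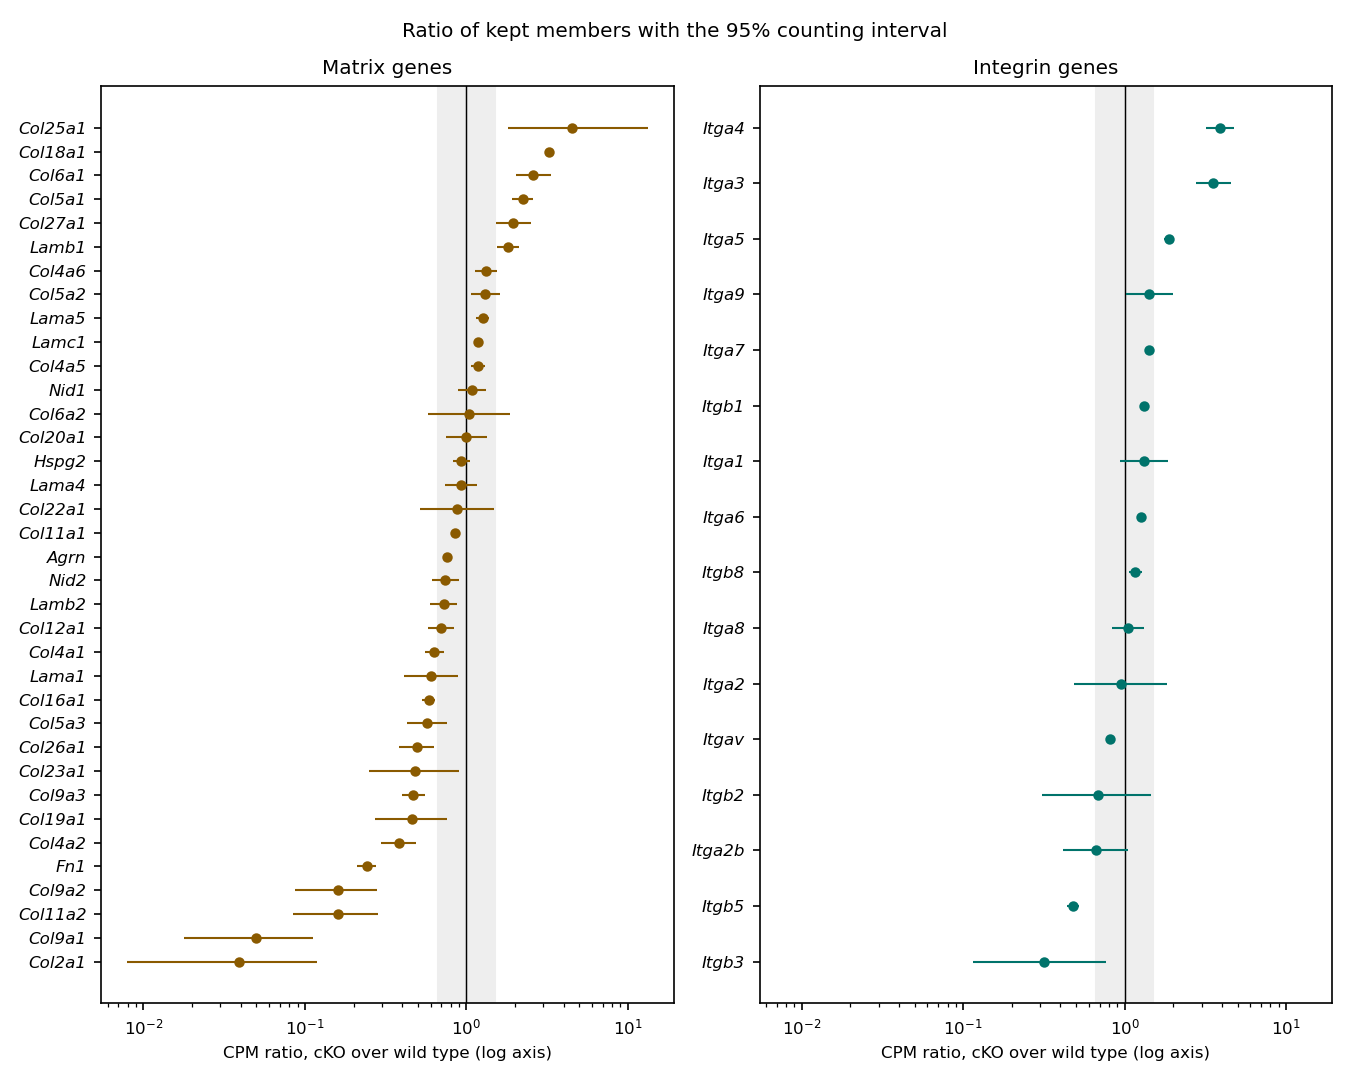
CPM ratio of the kept members (1 matrix gene not shown), cKO over wild type, on a log axis, with its 95% counting interval; the grey band spans 1.5-fold in each direction. Col2a1 and Col9a1 lie farthest left, at 0.0393 and 0.0498, and Itga4 lies farthest right among integrin genes, at 3.87.

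Col26a1 had 100 reads against 202 and was 2.03-fold lower in the cKO-labelled library (1.59 to 2.60). Transmembrane collagens were scarce. Col23a1 had 16 reads against 33, a ratio of 0.483 (0.248 to 0.903) that stayed within 1.5-fold once 1 CPM was added. Col25a1 had 27 against 6, a ratio of 4.48 (1.81 to 13.3) and a log2 difference of 0.88 once 1 CPM was added. Each reached the filter in 1 library only, Col23a1 in the wild-type-labelled one and Col25a1 in the cKO-labelled one (1.43 against 0.318 CPM), which favours a difference.

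Basement membrane collagen IV genes differed by pair. Col4a1 (chromosome 8, 11198423 to 11312889) had 357 reads in the cKO-labelled library against 563 and was 1.58-fold lower (1.38 to 1.81). Its log2 difference of -0.64 became -0.56 from deposited TPM (4.87 against 7.67, with 1 TPM added). With the trend in GC content removed it was -0.54, and both values lay within 1.5-fold. Col4a2 (chromosome 8, 11312805 to 11449287), whose product joins the same trimer, had 92 against 240 and was 2.62-fold lower (2.05 to 3.37). Both genes of the pair were lower, yet by different amounts, and the TPM ratio of Col4a1 to Col4a2 was 3.78 in the cKO-labelled and 2.28 in the other library. Their annotated exons overlap by 22 bases on opposite strands, under 1% of either gene. The second pair lies on the X chromosome and had ratios above 1. The libraries also differed in Y-linked reads (2931 against 1), and for this X-linked pair that difference cannot be told apart from the genotype labels. Col4a5 had 875 reads against 742, a ratio of 1.17 (1.06 to 1.30), and Col4a6 had 374 against 282, a ratio of 1.32 (1.13 to 1.55). These differences stayed within 1.5-fold. The third pair, Col4a3 and Col4a4, had 3 against 3 and 4 against 9 reads.

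Of the 7 kept laminin chains none was 1.5-fold lower, and the median was 0.23. As 10.2% of all kept genes were lower, the lack of lower ones among 7 is near the share of all genes. Lamb1 (chromosome 12, 31265146 to 31329644), the beta1 chain, had 443 reads against 245 and was 1.80-fold higher in the cKO-labelled library (1.54 to 2.11). Lamb2, the alternative beta chain, had 184 against 253, a ratio of 0.724 (0.596 to 0.879). The TPM of Lamb1 was thus above that of Lamb2 in the cKO-labelled library (7.07 against 2.98) and close to it in the other (3.89 against 4.09). Lamc1, the gamma1 chain common to most laminins and by TPM the most abundant laminin gene here, had 4241 reads against 3596, a ratio of 1.17 (1.12 to 1.23). Among alpha chains Lama5 had the highest TPM in both libraries, with 1059 against 837 reads and a ratio of 1.26 (1.15 to 1.38), and Lama4 had 150 against 161 reads. Lama1 had 47 against 77, a ratio of 0.608 (0.414 to 0.885), and Lama2 was under the filter.

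All 4 linker genes of the basement membrane were within 1.5-fold, as were 10796 of all 12618 kept genes. Agrn, a heparan sulfate proteoglycan also known for organising synapses, had 3262 reads against 4300, a ratio of 0.756 (0.722 to 0.791), and by TPM it had rank 1 among matrix genes in the wild-type-labelled and rank 3 in the cKO-labelled library. Hspg2 (501 against 536) and Nid1 (206 against 189) had intervals that held 1. Nid2 had 181 against 243, but 8.45% of its annotated exon length overlaps a gene on the other strand, and the strand setting of the counts is not known.

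Fn1 (Entrez 14268, chromosome 1, 71585473 to 71653280) had 270 reads in the cKO-labelled library against 1117 and was 4.15-fold lower (3.63 to 4.76). By TPM it stood at rank 7 of matrix genes in the wild-type-labelled and rank 20 in the cKO-labelled library.

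**Figure D4:**
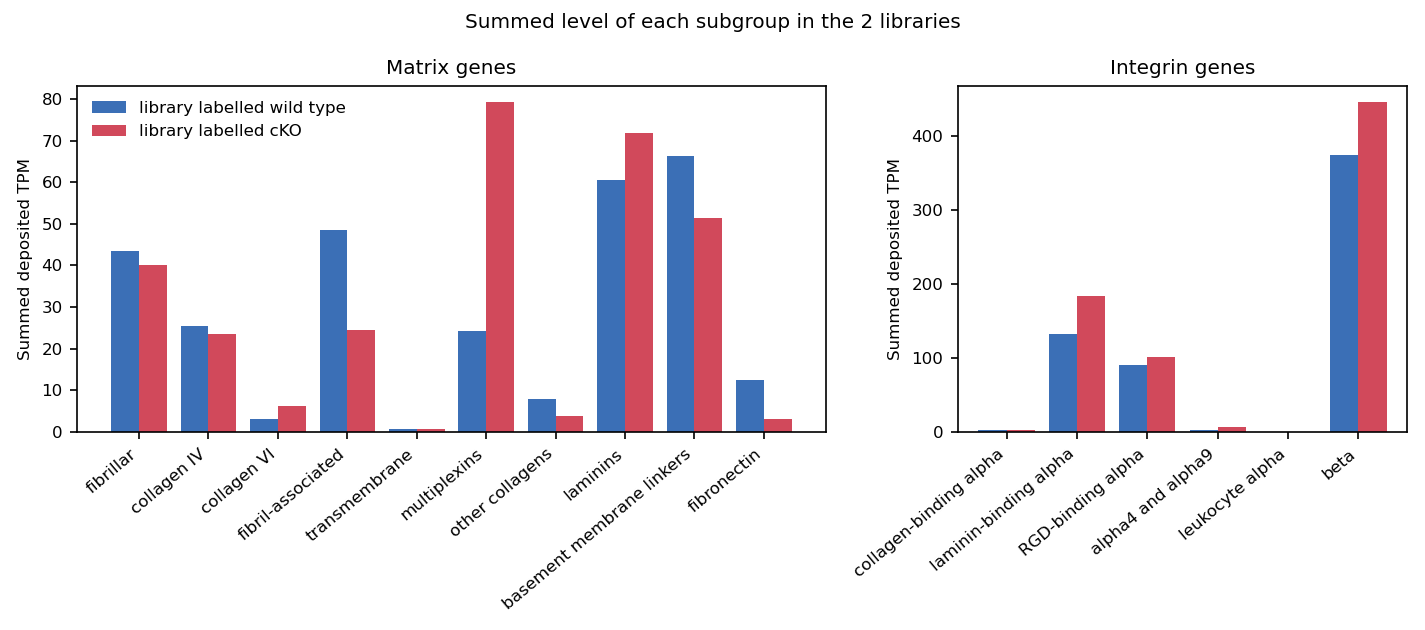
Summed deposited TPM (vertical axis, from 0) of each subgroup of matrix genes (left) and integrin genes (right) in the 2 libraries. The multiplexin bar, almost wholly Col18a1, stands at 79.2 in the cKO-labelled library against 24.2 in the wild-type-labelled one, while the fibril-associated collagens stand at 24.5 and 48.6.

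On the receptor side, no kept alpha integrin gene was at least 1.5-fold lower, and 3 of 11 were higher in the cKO-labelled library (median 0.34). Of all kept genes 10.2% were lower and 4.22% higher, so with 11 genes the lack of lower ones is near the share of all genes. Laminin-binding alpha chains made up the larger part of alpha integrin TPM in both libraries, 62.8% (cKO) and 58.4% (wild type). Itga7 had 5004 reads against 3533, a ratio of 1.41 (1.35 to 1.47), and Itga6 had 4100 against 3232, a ratio of 1.26 (1.21 to 1.32). Itga3 (Entrez 16400, chromosome 11, 95044475 to 95076844), whose product binds laminins with alpha5 chains, had 295 reads against 83 and was 3.54-fold higher (2.77 to 4.57). Of the 3 laminin-binding chains only Itga3, the least abundant, was past 1.5-fold. All 3 had ratios above 1, as had 6037 of all 12618 kept genes.

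Receptors that read the RGD motif of fibronectin and vitronectin were split. Itga5 (Entrez 16402, chromosome 15, 103344286 to 103366791), the alpha chain of the classical fibronectin receptor, had 2174 reads against 1144 and was 1.89-fold higher in the cKO-labelled library (1.76 to 2.04). Its ligand gene Fn1 was lower in the same library, so the TPM ratio of Itga5 to Fn1 was 15.5 against 1.94 in the other. Itgav, the alpha chain with the most beta partners, had 4159 reads against 5101, a ratio of 0.812 (0.779 to 0.846). The TPM ratio of Itgav to Itga5 was 1.13 in the cKO-labelled library against 2.61 in the wild-type-labelled one. Itga8 (154 against 146) and Itga2b (34 against 51) had intervals that held 1.

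Itga4 (Entrez 16401, chromosome 2, 79255426 to 79333114), whose product binds VCAM1 and an alternatively spliced stretch of fibronectin, had 497 reads against 128 and was 3.87-fold higher in the cKO-labelled library (3.18 to 4.73). In the annotation 8.04% of its exon length overlaps a gene on the other strand that the deposited table does not list. Itga9 had 91 reads against 64, a ratio of 1.42 (1.02 to 1.98). Collagen-binding alpha chains were scarce and did not differ detectably, with Itga1 at 83 against 63 reads, a ratio of 1.31 (0.934 to 1.85), and Itga2 at 20 against 21. Collagen-binding alpha chains summed to 1.95 TPM in the cKO-labelled library against 1.75 TPM in the other, while the collagen genes summed to 178 and 153 TPM. The higher collagen sum rested on Col18a1, without which it was 98.7 TPM in the cKO-labelled library against 129 TPM.

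Itgb1, the shared beta chain of most matrix-binding integrins, was the most abundant member of all. It had 17602 reads in the cKO-labelled library against 13339, a ratio of 1.31 (1.29 to 1.34), and held 87.5% of beta integrin TPM against 78.9%. Itgb5 (Entrez 16419, chromosome 16, 33829665 to 33949338), a partner of the alphav chain in a vitronectin receptor, had 744 reads against 1550 and was 2.09-fold lower (1.92 to 2.29). Its share of beta integrin TPM was 5.41% in the cKO-labelled and 13.6% in the other library. Itgb8, another partner of alphav and known for activating latent TGF-beta, had 1009 against 865 reads, a ratio of 1.16 (1.06 to 1.27), and Itgb3 had 7 against 22. The beta chains with alphav as partner therefore did not share a direction.

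**Figure D5:**
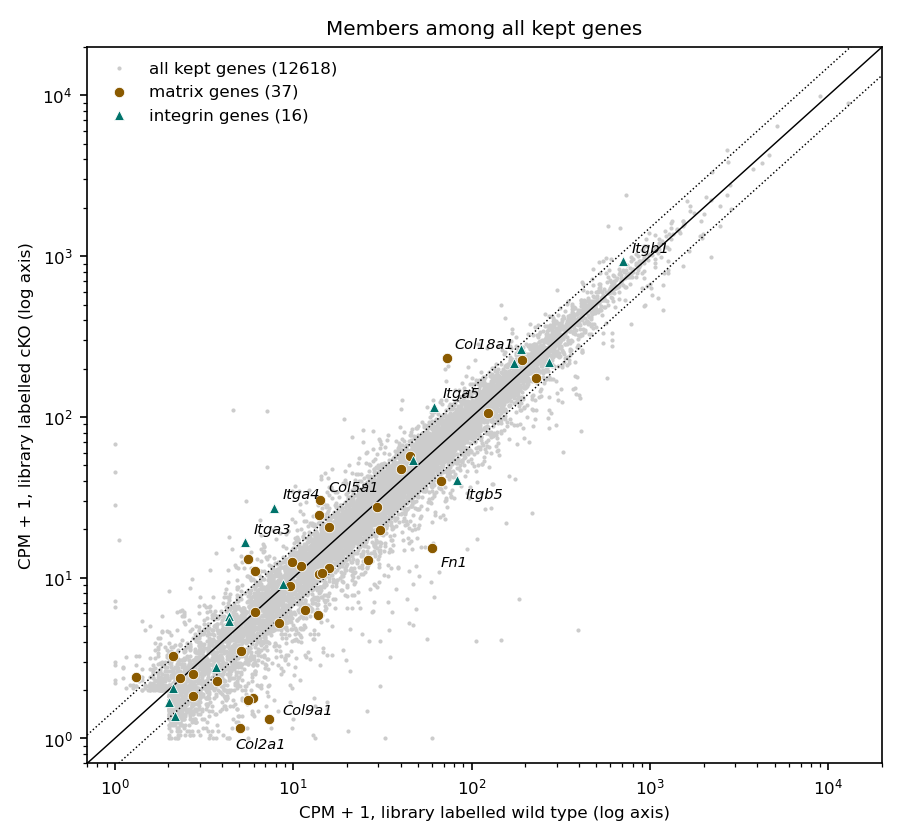
CPM + 1 of each kept gene in the library labelled cKO (vertical log axis) against the library labelled wild type (horizontal log axis), with matrix genes as circles, integrin genes as triangles and all 12618 kept genes in grey. Dotted lines mark 1.5-fold; Col18a1 and Itga4 lie above them, and Fn1 and Itgb5 below.

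Leukocyte integrin chains had almost no reads, with 1 against 0 for each of Itgal, Itgam and Itgax and 1 against 4 for Itgae. Itgb2, the usual beta chain of Itgal, Itgam and Itgax, had 13 against 19 reads. Microglia and leukocyte markers were close to absent as well, 1 of 5 listed being kept (Cd68, 91 against 56 reads), and Csf1r and Cx3cr1 had 0 reads in the cKO-labelled library against 1 in the other. Endothelial markers had 2 of 6 listed kept, with a sum of 8.46 CPM against 9.55 CPM. In all, 30 members were under the filter, 22 of them matrix and 8 integrin genes, with at most 17 reads in a library, and 15 of these had 3 reads or fewer in both.

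Genes that act with the members were read from 4 fixed lists, whose counts stand beside 4.22% higher and 10.2% lower among all kept genes. Of 27 kept genes of collagen maturation 1 was higher (3.70%) and 8 lower (29.6%) in the cKO-labelled library (median -0.07), so the share of higher genes was near that of all genes. Among the 25 that reached the filter in both libraries 1 was higher and 6 lower. Of all genes that did, 3.84% and 8.44% were higher and lower. P4ha2, a subunit of the prolyl hydroxylase that stabilises the triple helix, had 70 reads against 227 and was 3.26-fold lower (2.48 to 4.32). Loxl2, a crosslinking enzyme that acts on collagen IV, had 121 against 304 and was 2.52-fold lower (2.04 to 3.14), and Adamts3, a procollagen protease, had 157 against 309 and was 1.98-fold lower (1.63 to 2.41). P3h2, a prolyl 3-hydroxylase that acts on collagen IV, had 1169 against 507 and was 2.30-fold higher (2.07 to 2.55).

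Of 28 kept adaptors that link integrins to actin or to kinase signalling, 1 was higher (3.57%, near the share of all genes) and 6 lower (21.4%), with a median of -0.04. Among the 27 that reached the filter in both libraries 1 was higher and 5 lower. The higher gene was Zyx, a focal adhesion protein, with 2082 reads against 1332, a ratio of 1.56 (1.45 to 1.67). Among the lower genes, the focal adhesion kinase relative Ptk2b had 212 against 552 reads and was 2.61-fold lower (2.23 to 3.08), and the tensin gene Tns2 had 21 against 83 and was 3.97-fold lower (2.43 to 6.75). Lims2 had 9 against 467, but its locus holds the oligodendrocyte lineage gene Gpr17 (71 against 7423 reads), and the counting may not have separated the pair, as its strand setting is unknown here.

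Of 16 other matrix receptors 3 were higher (18.8%) and 0 lower (median 0.03). These were the syndecans Sdc1, with 1612 reads against 729 and 2.20-fold higher (2.02 to 2.41), and Sdc2, with 2251 against 1401 and 1.60-fold higher (1.497 to 1.71), and the hyaluronan receptor Cd44, with 6869 against 4247 and 1.61-fold higher (1.55 to 1.67). Of 20 other integrin ligands 7 were higher (35.0%) and 3 lower (15.0%), and their median was 0.18. Among the 17 that reached the filter in both libraries 5 were higher and 2 lower. Of all genes that did, 3.84% and 8.44% were higher and lower. Among the higher ligands, the matricellular genes Ccn2 and Thbs1 had 83 reads against 8 and 100 against 26, and Spp1, which encodes osteopontin, had 883 against 294. Ccn2 reached the filter in the cKO-labelled library only (4.39 against 0.425 CPM), which favours a difference. The fibulin genes Fbln2 and Fbln5 were lower, at 577 against 1493 and 66 against 145 reads.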

How the data were processed

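Total RNA of suspension-cultured neural stem cells was extracted on columns and made into libraries by standard Illumina methods, per the labels' protocols. Groups came from the genotype labels and columns from the genotype in their names. The submitters' processing notes name build GRCm38.p6. The sources used here name no aligner, counter, annotation or strand setting. The authors deposited estimated counts of reads per gene (89.8% and 90.0% of values whole), TPM, FPKM and a scaled signal named as normalized reads per the file headers. The deposited FPKM and that signal were not used.

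Estimated counts were rounded to whole reads and divided by column totals to give CPM. Depth was about equal, and its precision is that of the counting intervals. All 83 members were matched to RefSeq coordinates of GRCm38.p6 by gene number. The calculation was tested on simulated data. Tools were Python 3.11.15, scipy 1.17.1, pandas 2.3.3 and, for other scalings, edgeR 4.0.16 and DESeq2 1.42.0.

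Named genes were kept members past 1.5-fold with 50 or more reads in the higher library, the 3 most abundant of each role, Fn1 and Col18a1, the most abundant kept member of each subgroup left without a name, and up to 3 genes per direction of each list of partner genes. Other members were named after their values were seen, for their family or position. Members and lists were chosen with earlier results of these data known. Alternatives covered scaling, TPM (with 1 TPM added), the added value, the filter and GC content. The values of 1 kept member are not reported here.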

Additional observations from a re-analysis of the deposited data

How the results depend on the processing

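With 1 library per genotype, neither the spread between cultures nor that between animals is known. No paired analysis was possible because each genotype has a single library. Wherever they were kept, all 28 named members had the same direction under each of the 8 alternatives. For single genes the TPM alternative had 1 TPM added, which draws genes of low TPM toward no difference. Of the 21 past 1.5-fold, Col4a1 and Col5a3 fell within it with deposited TPM, with 5 CPM added and with the GC trend removed. Col19a1 did so with TPM and with 5 CPM added, and Col27a1 with 5 CPM added. With 0.5 CPM added Lama1 and Col23a1 passed 1.5-fold as lower, and with the GC trend removed Itga7 as higher (0.59). Of the 21, a filter at 5 CPM left out Col19a1, Col9a2, Col11a2 and Col2a1. The 7 higher matrix genes became 4 with 5 CPM added, where the higher and lower genes among all kept genes went from 532 and 1290 to 304 and 674. The 2 lower integrin genes became 1 with TPM, with 5 CPM added and with the filter at 5 CPM, Itgb3 being the gene lost, and 3 without a filter. The matrix median moved from -0.23 to -0.0047 without a filter and to -0.10 with the filter at 5 CPM, and the integrin median from 0.26 to 0.07 and 0.36. Leaving out the most abundant member took the ratio of summed levels from 1.04 to 0.881 for matrix genes (Col18a1) and from 1.22 to 1.14 for integrin genes (Itgb1). Members with few reads, such as Col2a1, are limited by depth.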

Other observations

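Reads divided by deposited TPM give the transcript length that the quantification implied in each library. Relative to the median gene, that length was 1.12 times as large in the cKO-labelled as in the wild-type-labelled library for Col12a1 and 1.08 times as large for Col26a1. The central 95% of 11626 genes with at least 1 TPM in both libraries lay between 0.949 and 1.05. For Col18a1 the value was 0.996, for Fn1 1.01, for Itga4 0.993 and for Itgb5 1.01. The whole-gene counts do not separate the annotated starts of Col18a1.

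Itgb7, a lymphocyte beta chain, had 1 read in the cKO-labelled library against 14 and was under the filter.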
